A study of Homo sapiens with 10 samples.

Results

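The Notch genes examined in HCT116 colorectal cancer cells were 10 genes named by the roles they have in the pathway: the receptors NOTCH1, NOTCH2 and NOTCH3, the ligands JAG1 and JAG2, the targets HES1, HES4, HEY1 and NRARP, and the regulator DTX2. They were taken by symbol, and the list was chosen with earlier results of these data known. The ZMAT3 table lists 13029 genes and 9 of them were members, since HEY1 has no row there, and all 10 were among the 17642 genes of the siRNA table. RNA-seq was made from 10 libraries in 2 experiments. The first compared 3 cultures of a ZMAT3-WT clone with 3 cultures of a ZMAT3-KO clone, made with Cas9 and guides on both sides of the p53 response element in an intron of ZMAT3, to find RNAs that depend on the RNA-binding protein ZMAT3. The second compared 2 cultures transfected with a control siRNA (siCTRL) with 2 transfected with a pool of 4 siRNAs against p53 (sip53) for 72 h, to find RNAs that depend on p53, which activates ZMAT3. The labels add EV and unt to the names of the ZMAT3 libraries without saying what these stand for, and state that no drug was given to any culture. All knockout cultures came from 1 clone, so the spread between libraries is that between cultures and holds nothing on how clones differ.

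Notch receptors are single-pass membrane proteins that are switched on by a ligand of the Jagged or Delta type on a neighbouring cell. Ligand binding exposes the receptor to ADAM proteases and then to gamma-secretase, which free the intracellular part to enter the nucleus and bind RBPJ and a Mastermind protein on DNA. Genes that answer directly include the HES and HEY repressors and NRARP, which in turn limits the signal. In the intestine Notch keeps stem and absorptive cells from taking the secretory fate, with HES1 as the main repressor of secretory genes, and many colorectal tumours express the receptors and HES1.

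RBPJ recognises the letters TGGGAA, often as GTGGGAA. These letters were searched on both strands of the RefSeq promoter windows (GRCh38.p14, 250 bases before to 50 after the start of a gene), which were matched for 9 members. TGGGAA was present in 24% of all 35116 windows, so that its presence in one window is common, and GTGGGAA, which includes it, in 6.25%. The windows of HES1, HES4 and DTX2 held TGGGAA on one of the strands, and those of NOTCH1, NOTCH2, NOTCH3, JAG1, JAG2 and NRARP did not. HES1 had it 2 times and HES4 1 time, with the leading G once in each, whereas the match of DTX2 lacked that G. The stretches of 30 bases around these matches are shown because HES1 and HES4 both carry the letters before their RefSeq starts but gave unlike values in the knockout, with HEYL as the other HES or HEY gene expressed in these cells that had matches. Each is written 5′ to 3′ in the direction of the gene, with the match in capitals (TTCCCA is the match on the opposite strand).
HES1, chr3:194136059-194136088, plus strand: tactgTGGGAAagaaagttTGGGAAgtttc
HES4, chr1:1000156-1000185, minus strand: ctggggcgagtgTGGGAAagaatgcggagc
DTX2, chr7:76461638-76461667, plus strand: ccgggactacatTTCCCAgaaggccgcacg
HEYL, chr1:39639804-39639833, minus strand: ccgcctagggccTTCCCAcggctcggcggc
HEYL, chr1:39639725-39639754, minus strand: aggaaagggcccTGGGAAagggcggtggcg
The matches of HES1 began 84 and 70 bases before the start and that of HES4 76 bases before it. These distances are from the RefSeq starts. The HES4 gene of GENCODE release 44 starts further upstream, at 1000172 on the minus strand, so the HES4 stretch overlaps an annotated exon and UTR of HES4 in part, and the other 4 stretches lie before their genes. Among the relatives named below, the windows of HES2, HES6 and DTX4, which were called lower in the knockout, held no match. The GENCODE genes of HES2 and NOTCH2 start further upstream, at 6424670 and 120100779 on the minus strand. Those starts lie outside the windows searched, so the lack of a match holds for the RefSeq starts alone. A match describes the letters and was not tested for binding.

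In the knockout experiment the targeted gene was as labelled. Levels are in log2 CPM (library-scaled counts on a log2 scale, which share 1 distribution over the 6 libraries). ZMAT3 was at 5.00, 5.20 and 5.26 in the WT libraries and at 2.25, 2.34 and 2.195 in the KO libraries, 7.43-fold lower. Replicates correlated at 0.995 to 0.996 in the ZMAT3 experiment and at 0.958 to 0.964 in the siRNA experiment. The siRNA values do not share 1 distribution, so these correlations are not on equal terms. The standard error of HES1, for one, was 0.063 in the first experiment and 0.189 in the second. Neither table holds read counts, which leaves the sequencing depth unknown. HCT116 is epithelial, and of 7 epithelial markers 6 had a row in the ZMAT3 table. KRT8, KRT18 and KRT19 fell in the KO libraries (log2 differences of -0.94, -0.82 and -1.75), EPCAM, CDH1 and CLDN4 did not pass the test, and the sum of the 6 was 5819 to 6151 CPM in WT and 3225 to 3314 CPM in KO. Of 10 markers of immune, endothelial, fibroblast and muscle cells only CD68, COL1A1 and ACTA2 had a row in the table, and their sum was 15.3 to 16 CPM in WT and 16.8 to 17.4 CPM in KO. Within this sum CD68 was higher in KO (log2 difference 0.98, limma, adjusted p = 4.14e-05), as was COL1A1 (0.16, limma, adjusted p = 0.0269). ACTA2 was lower (-0.66, limma, adjusted p = 0.000256). The part of the keratin difference in the results below was not tested.

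Levels of different genes can be compared in the siRNA table, whose values are FPKM (a level per transcript length and per library), and with siCTRL all members but HEY1 were between 6.17 and 22.94 FPKM. JAG1, a ligand of the Jagged family, was highest at a mean of 21.9 ± 1.44 FPKM (SD, n = 2), above the range of every other member. DTX2 (17.4 ± 1.77), JAG2 (15.8 ± 2.89) and NOTCH2 (15.4 ± 1.59) followed, and the ranges of neighbours in this order overlapped. HES1 came next at 13.4 ± 0.20 FPKM, below both NOTCH2 libraries, then NOTCH3 (11.6 ± 3.23), HES4 (8.18 ± 1.89) and NRARP (7.79 ± 1.47), where each overlapped the next. NOTCH1 was at 6.37 ± 0.28 FPKM, below both NRARP libraries, and HEY1 was last at 0.28 ± 0.11 FPKM. Among receptors NOTCH2 was thus above NOTCH3 and NOTCH1 in both siCTRL libraries, and among the HES and HEY targets HES1 was above HES4, with HEY1 close to 0. In the ZMAT3-WT libraries, on log2 CPM that is not corrected for transcript length, HES4 (mean 4.87) was above HES1 (3.84) and JAG2 (6.67) above JAG1 (5.22). NOTCH2 (6.88) was also there above NOTCH1 (5.66) and NOTCH3 (3.96). The order given here is therefore that of the siCTRL libraries alone, and why the experiments differ was not tested.

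Loss of ZMAT3 went with a fall of HES1 and, to a smaller extent, of NRARP, while the receptors and Jagged ligands moved by at most 0.26 on the log2 scale and in both directions. HES1 was 2.69-fold lower in the KO than in the WT cultures, and NRARP 1.43-fold lower. NOTCH1 and JAG2 were slightly lower, NOTCH2 and JAG1 slightly higher, and NOTCH3, HES4 and DTX2 did not pass the test. A gene was called at an adjusted p of 0.05 (limma, Benjamini-Hochberg over 13029 genes) and 1.5-fold, and by this rule 1 of 9 members, HES1, was called lower and 0 of 9 higher. Over all genes 4.37% were called lower and 4.6% higher. By the adjusted p alone 4 members fell and 2 rose, against 30.1% and 28.7% of all genes, so that shifts of the size seen in receptors and ligands were common in this comparison. The groups did not overlap for 6 of 9 members and for 64.2% of all genes.

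**Figure D1:**
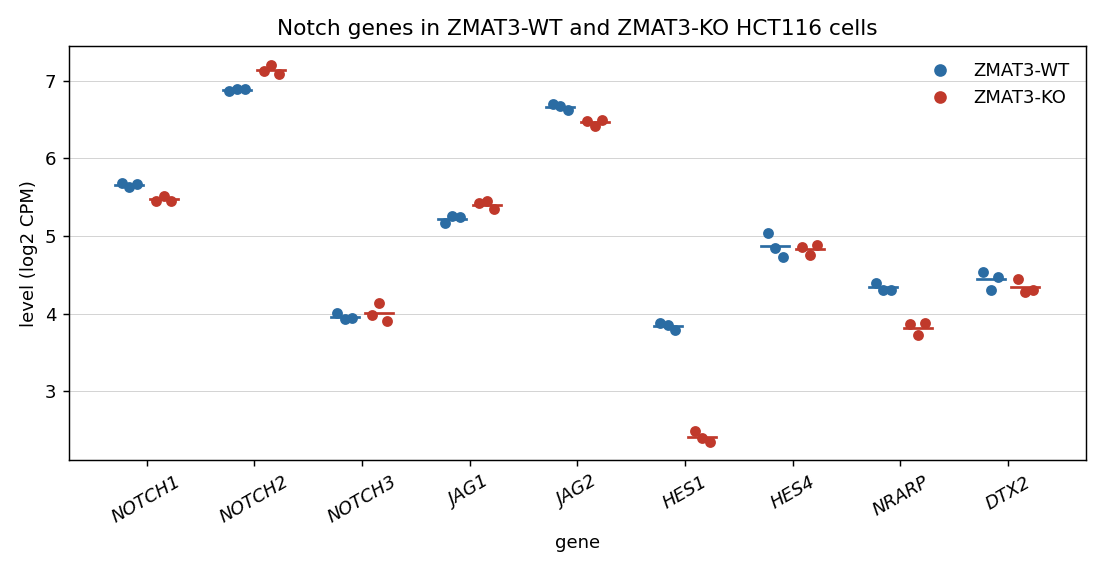
Level of 9 Notch genes in log2 CPM (vertical axis) in 3 ZMAT3-WT (blue) and 3 ZMAT3-KO (red) libraries. Points are libraries and short lines group means. HES1 lies at 3.78 to 3.88 in WT and at 2.35 to 2.48 in KO, and no other member moves as far.

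HES1 is a basic helix-loop-helix repressor and the best-known direct target of Notch, encoded at chr3:194136148-194138732 (hg38, plus strand). Its level was 3.88, 3.86 and 3.78 log2 CPM in the 3 WT libraries and 2.48, 2.40 and 2.35 in the 3 KO libraries. Every KO library was below every WT library, by more than 1 log2 unit. The difference was -1.43 with a standard error of 0.063 (95% interval -1.56 to -1.29, limma, adjusted p = 1.31e-09), which ranked 112 from the lowest among 13029 genes. It was between -1.46 and -1.40 when each library was left out in turn and -1.28 with a pseudocount of 1 CPM, and it was called in all of these. In RNA from whole cultures, fewer cells that express a gene and less of its RNA per cell cannot be told apart.

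HES4, a relative of HES1 with the same type of DNA-binding domain, is encoded at chr1:998962-1000172 on the minus strand. It was at 5.04, 4.85 and 4.73 log2 CPM in WT and at 4.86, 4.76 and 4.88 in KO. The groups overlapped, and the difference was -0.04 (standard error 0.066, 95% interval -0.18 to 0.10, limma, adjusted p = 0.627). Leaving out WT library 1, the highest of the 6, turned it to 0.04. HES1 and HES4 therefore gave unlike values in the same libraries, with an interval for HES4 that lies outside that of HES1. The promoter windows of both hold the RBPJ letters shown above, and whether the letters bear on these values was not tested.

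NRARP, a small ankyrin-repeat protein that binds the Notch complex and damps it, is encoded at chr9:137299631-137302271 on the minus strand. It was at 4.39, 4.31 and 4.31 log2 CPM in WT and at 3.87, 3.72 and 3.88 in KO. All KO libraries were below all WT libraries, and the difference of -0.52 (standard error 0.055, 95% interval -0.64 to -0.40) passed the adjusted p (limma, 5.15e-06) but stayed under 1.5-fold. Leaving out 1 library at a time gave -0.54 to -0.47. DTX2, a deltex E3 ubiquitin ligase that binds Notch receptors (chr7:76461676-76505995, plus strand), was at 4.54, 4.31 and 4.48 log2 CPM in WT and at 4.45, 4.29 and 4.30 in KO. Its groups overlapped and its difference was -0.10 (standard error 0.064, limma, adjusted p = 0.218). A gene joined to a deltex 2 pseudogene, DTX2P1-UPK3BP1-PMS2P11, had a difference of -0.09 that did not pass either (limma, adjusted p = 0.535), and how reads were split between the near-identical copies is not known.

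The receptors went in different directions. NOTCH1 (chr9:136494433-136546048, minus strand) was at 5.68, 5.63 and 5.68 log2 CPM in WT and at 5.45, 5.51 and 5.45 in KO. It was lower in every KO library, by 0.19 on the log2 scale with a standard error of 0.035 (limma, adjusted p = 0.000526). NOTCH2 (chr1:119911553-120100779, minus strand) was at 6.86, 6.89 and 6.89 in WT and at 7.13, 7.20 and 7.08 in KO. It was higher in every KO library, by 0.26 with a standard error of 0.033 (limma, adjusted p = 2.85e-05), or 1.20-fold. NOTCH2 shares some 5′ exons with the NOTCH2NL genes, of which NOTCH2NLA had a difference of 0.08 (limma, adjusted p = 0.535), so part of the reads may be assigned to the wrong copy. NOTCH3 (chr19:15159038-15200995, minus strand) was at 4.00, 3.93 and 3.94 in WT and at 3.98, 4.14 and 3.91 in KO. Its groups overlapped, with a difference of 0.05 (standard error 0.060, limma, adjusted p = 0.529) that turned to -0.02 without KO library 2. NOTCH4 has no row in the ZMAT3 table.

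The Jagged ligands also parted. JAG1 (chr20:10637684-10673999, minus strand), a ligand often raised in colorectal cancer, was at 5.16, 5.25 and 5.24 log2 CPM in WT and at 5.42, 5.45 and 5.35 in KO. All KO libraries lay above WT, with a difference of 0.19 and a standard error of 0.041 (limma, adjusted p = 0.00172). JAG2 (chr14:105140982-105168824, minus strand) was at 6.70, 6.67 and 6.62 in WT and at 6.48, 6.42 and 6.50 in KO. It was lower in every KO library, by 0.20 with a standard error of 0.034 (limma, adjusted p = 0.000283). These were 1.14-fold and 1.15-fold, and the direction of each was kept under all 11 alternatives tried. The Delta ligands DLL1 and DLL4, at much lower log2 CPM, were lower in KO by 0.47 (standard error 0.112, limma, adjusted p = 0.00287) and 0.46 (standard error 0.176, limma, adjusted p = 0.0396). That of DLL4 depended on the setting, with adjusted p values of 0.0221 to 0.148 over the alternatives. DLL3 has no row there.

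The 3 HES and HEY relatives with a row, HES2, HES6 and HEYL, were lower in KO by the adjusted p. HES2, a HES family repressor, was at 3.09, 3.09 and 3.03 log2 CPM in WT and at 2.35, 2.38 and 2.58 in KO, a difference of -0.63 (standard error 0.076, limma, adjusted p = 1.54e-05). HES6, a relative known to counteract HES1 rather than to act for it, was at 5.44, 5.25 and 5.21 in WT and at 4.76, 4.58 and 4.71 in KO, a difference of -0.62 (standard error 0.062, limma, adjusted p = 3.16e-06). HEYL, a HEY family repressor that is a target of NOTCH3 in several tissues, was at 4.26, 4.30 and 4.33 in WT and at 3.76, 3.74 and 3.74 in KO, a difference of -0.55 (standard error 0.046, limma, adjusted p = 6.52e-07). In all 3 genes every KO library was below every WT library. HES2 and HES6 were called and HEYL, at 1.46-fold, was not. The call of HES6 ended without WT library 1 (-0.55) and without KO library 2 (-0.57), where it fell under 1.5-fold, and that of HES2 with a pseudocount of 1 CPM (-0.55). The table holds 6 genes that are a HES or HEY gene or NRARP, members included. Of these 5 were lower by the adjusted p and 0 higher, HES4 being the other, against 30.1% and 28.7% of all genes. By the call rule 3 of the 6 were lower, against 4.37% of all genes. The lists were chosen with earlier results of these data known, so these counts describe the 6 genes and are no test of them as a group. HES5, HES7, HEY1 and HEY2 have no row in the ZMAT3 table. Of the 3 deltex genes there, DTX4 was called lower (-0.68, standard error 0.059, limma, adjusted p = 8.89e-07), while DTX3L was 0.12 higher (limma, adjusted p = 0.0415).

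**Figure D2:**
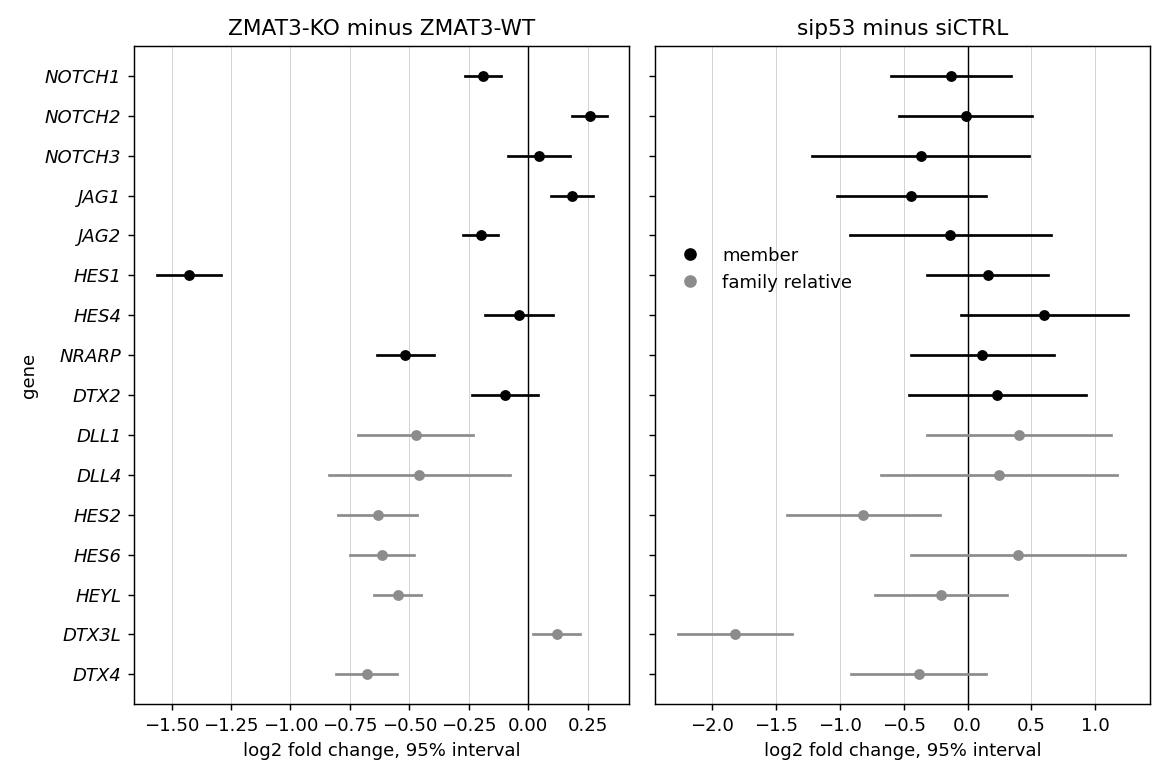
Log2 fold change (horizontal axis) with 95% intervals for members (black) and HES, HEY, Delta and deltex relatives (grey), ZMAT3-KO minus WT on the left and sip53 minus siCTRL on the right, on separate scales; genes without a row or under the filter on low values have no point. HES1 stands at -1.43 on the left and at 0.16 on the right, and DTX3L at 0.12 on the left and at -1.82 on the right.

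Other pathway genes went both ways. Beside the 10 members 58 pathway genes were listed by role, and 50 of them had a row in the ZMAT3 table. Of these 2 were called higher and 5 lower (HES2, HES6 and DTX4 above, and MFNG and MAML3), or 14 and 18 by the adjusted p alone, with the shares over all genes as given above (4.6% and 4.37% called, 28.7% and 30.1% by the adjusted p). Their median difference was -0.03 against -0.10 for the members and -0.01 for all genes. Among the proteases ADAM17 and the gamma-secretase subunits NCSTN and APH1A rose by the adjusted p (by 0.14 to 0.28) and ADAM10, which makes the first cut, fell (by 0.33, limma, adjusted p = 2.95e-06). None of these 4 was called. In the nuclear complex RBPJ, the DNA-binding partner of the freed receptor, rose by 0.21 (limma, adjusted p = 0.000239), MAML1 did not pass, and MAML3 was called lower (-0.96, limma, adjusted p = 0.00499). Among the 6 sugar transferases, which tune ligand choice, MFNG was called lower (-0.84, limma, adjusted p = 0.00282), and by the adjusted p 2 rose and 3 fell. NEURL1, an E3 ligase for ligands, and TLE1, a Groucho corepressor that HES proteins recruit, were called higher (0.62 and 0.64, limma, adjusted p = 0.00214 and 2.71e-08). MFNG, MAML3 and NEURL1 lay near 0 log2 CPM, and with a pseudocount of 1 CPM their differences shrank to -0.37, -0.43 and 0.37 and were no longer called. NEURL1 also lost its call without WT library 2 (0.57).

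**Figure D3:**
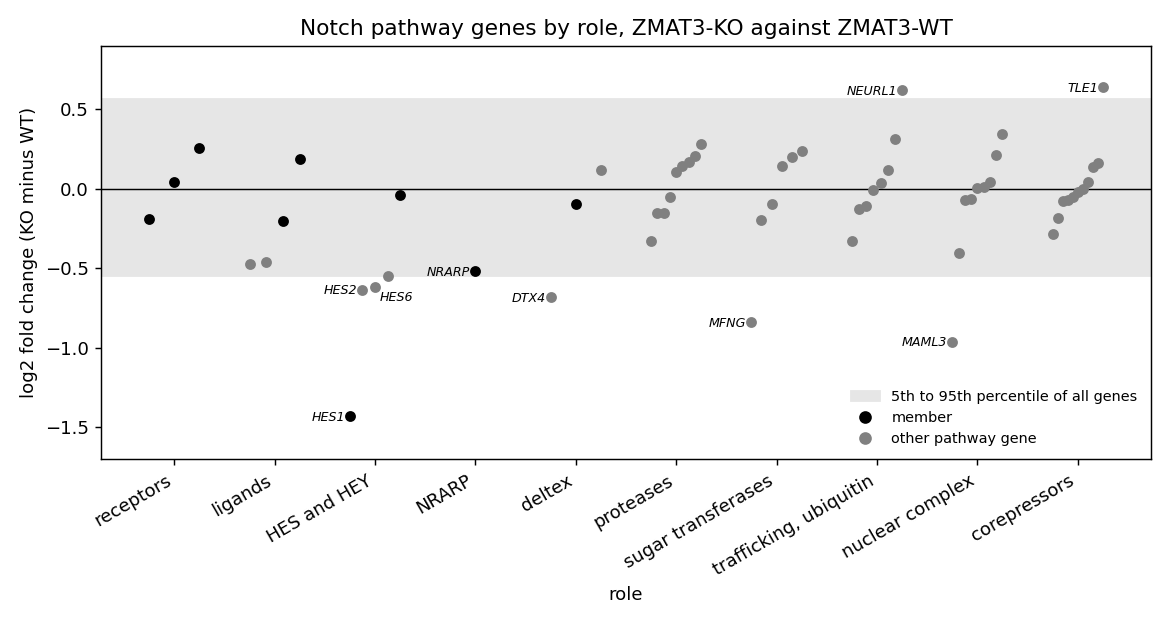
Log2 fold change, ZMAT3-KO minus WT (vertical axis), of 59 Notch pathway genes by role; points are genes, members in black, with called genes and NRARP named, and the grey band spans the values of all genes from percentile 5 to 95 (-0.55 to 0.57). HES1, HES2, HES6, DTX4, MFNG and MAML3 lie below the band and NEURL1 and TLE1 above it.

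Knockdown of p53 gave no call among the members. At the call threshold of this experiment, an unadjusted p of 0.05, 0 of 9 tested members were higher and 0 lower (limma on log2(FPKM + 0.1), 14274 genes whose mean reached 0.5 FPKM), with adjusted p values from 0.362 to 0.983. Over all genes 5.86% were higher and 9.28% lower at that threshold, and 0.273% passed an adjusted p of 0.05 in either direction. The groups did not overlap for 4 of 9 members and for 46.4% of all genes, which with 2 libraries a group is a weak criterion. In simulated data with 2 libraries a group, 81.5% of the 200 genes changed by 1 log2 unit passed the unadjusted p and 0% the adjusted p. The simulated noise was independent between libraries, whereas same-numbered siCTRL and sip53 libraries deviated in opposite directions (correlation -0.616). These shares therefore do not measure what this experiment could find, and changes of 1 log2 unit or less can be missed in it.

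**Figure D4:**
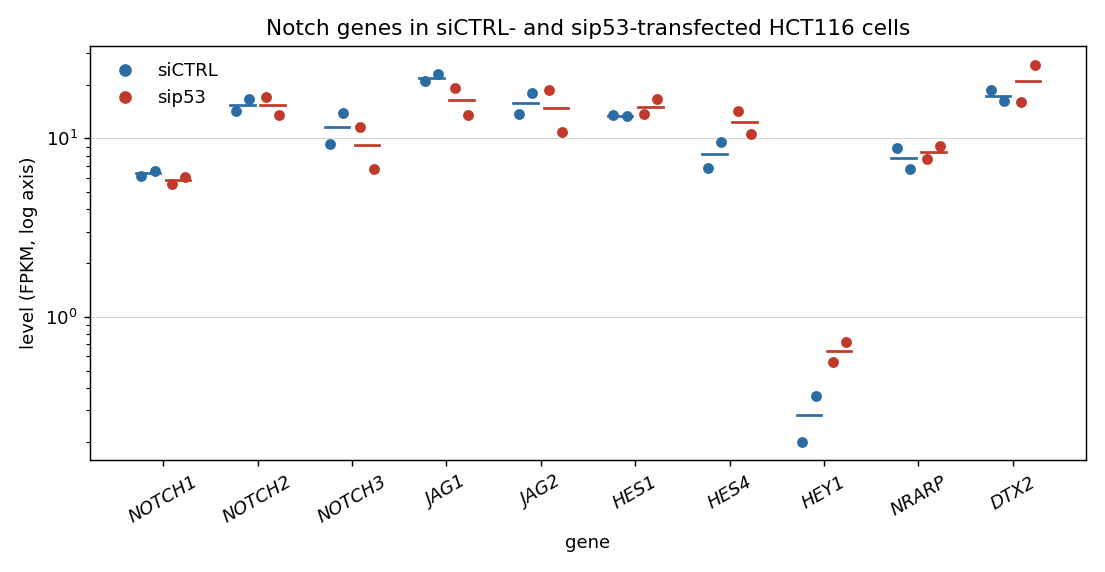
Level of 10 Notch genes in FPKM (vertical axis, log scale) in 2 siCTRL (blue) and 2 sip53 (red) libraries. Points are libraries and short lines group means. HES1, HES4 and HEY1 lie higher and NOTCH1 and JAG1 lower in both sip53 libraries, and HEY1 is under 1 FPKM throughout.

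HES1 was at 13.58 and 13.30 FPKM with siCTRL and at 13.62 and 16.54 FPKM with sip53. The lower sip53 library was barely above the higher siCTRL library, and the difference was 0.16 on the log2 scale (standard error 0.189, 95% interval -0.32 to 0.63, limma, adjusted p = 0.751). This interval does not reach the difference of -1.43 seen in the ZMAT3-KO cells. ZMAT3 itself was at 12.00 and 13.62 FPKM with siCTRL and at 3.16 and 1.97 FPKM with sip53. A knockdown of p53 for 72 h and an edited ZMAT3-KO clone are unlike in duration and in the gene hit, and the knockout rests on 1 clone. The tables were also normalized separately, and the difference between the experiments was not tested. HES4 was at 6.84 and 9.51 FPKM with siCTRL and at 14.32 and 10.54 with sip53. Both sip53 libraries were above both siCTRL libraries, 1.52-fold on the scale with the pseudocount, with a log2 difference of 0.60 (standard error 0.260, 95% interval -0.05 to 1.26, limma, adjusted p = 0.362). It passed the unadjusted p without siCTRL library 2 (0.84, limma, adjusted p = 0.588), without sip53 library 2 (0.82, limma, adjusted p = 0.409) and with each library centred on its median (0.68, limma, adjusted p = 0.313). HEY1, a repressor of the HEY family, was at 0.20 and 0.36 FPKM with siCTRL and at 0.56 and 0.72 with sip53. Its mean was under 0.5 FPKM and it was left out of the test, and without that filter the difference was 0.99 (standard error 0.325, limma, adjusted p = 0.318). How many reads lie behind such low levels is unknown.

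The other members did not pass the unadjusted p. JAG1 was at 20.91 and 22.94 FPKM with siCTRL and at 19.25 and 13.51 with sip53, lower in both but by unlike amounts (-0.44, standard error 0.232, 95% interval -1.02 to 0.14, limma, adjusted p = 0.441), and it passed the unadjusted p only when sip53 library 1 was left out (-0.69, limma, adjusted p = 0.347). NOTCH1 was at 6.17 and 6.57 FPKM with siCTRL and at 5.57 and 6.07 with sip53, a difference of -0.13 (standard error 0.186, limma, adjusted p = 0.803). NOTCH2 was at 14.30 and 16.55 against 17.15 and 13.50 FPKM, a difference of -0.02 (standard error 0.208, limma, adjusted p = 0.983). For NOTCH1 the groups did not overlap and for NOTCH2 they did. NOTCH2NL, the near-identical copy listed in this table, was at 4.24 and 5.18 FPKM with siCTRL and at 9.11 and 7.75 with sip53 (0.83, standard error 0.211, limma, adjusted p = 0.189), so reads placed on the wrong copy could touch the value of NOTCH2. NOTCH3 was at 9.34 and 13.91 against 11.52 and 6.75 FPKM (-0.37, standard error 0.337, limma, adjusted p = 0.67), and JAG2 at 13.79 and 17.88 against 18.75 and 10.90 FPKM (-0.13, standard error 0.312, limma, adjusted p = 0.88). In both, siCTRL library 2 and sip53 library 1 were the high ones. NRARP was at 8.83 and 6.75 against 7.70 and 9.10 FPKM (0.12, standard error 0.222, limma, adjusted p = 0.854), and DTX2 at 18.64 and 16.14 against 16.09 and 25.87 FPKM (0.23, standard error 0.274, limma, adjusted p = 0.748). For DTX2 a single sip53 library stood above the other 3.

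Among the other pathway genes 48 were tested with sip53, and 1 was higher and 7 lower at the unadjusted p, against 5.86% and 9.28% of all genes. With the replicate number as a block 0 were higher and 3 lower, when 7.59% of all genes were called against 15.1% in the main fit. The largest difference was in DTX3L, a deltex-like E3 ligase that works with PARP9 in the interferon response and DNA repair. It was at 21.32 and 22.57 FPKM with siCTRL and at 6.49 and 5.80 with sip53, 3.53-fold lower on the scale with the pseudocount (-1.82, standard error 0.178, limma, adjusted p = 0.0425). It was the only listed pathway gene to pass the adjusted p, and this pass was lost without the filter on low values (0.176, limma), with median centring (0.0513), without the variance trend (0.0743) and in each fit that left out 1 library, while the unadjusted p was passed under all 10 alternatives. HES2 was at 8.97 and 12.54 FPKM with siCTRL and at 6.47 and 5.52 with sip53 (-0.82, standard error 0.238, limma, adjusted p = 0.22), and it no longer passed without siCTRL library 2 (-0.58, limma, adjusted p = 0.684) or without sip53 library 2 (-0.70, limma, adjusted p = 0.47). HES6 was at 14.39 and 24.48 against 30.04 and 20.32 FPKM (0.39, limma, adjusted p = 0.637) and HEYL at 7.42 and 6.04 against 5.51 and 6.09 FPKM (-0.21, limma, adjusted p = 0.696). DTX4 was at 6.03 and 5.79 against 4.03 and 5.04 FPKM (-0.38, limma, adjusted p = 0.457), DLL1 at 1.24 and 1.40 against 1.98 and 1.59 FPKM (0.40, limma, adjusted p = 0.563), and DLL4 at 0.64 and 0.68 against 0.77 and 0.83 FPKM (0.24, limma, adjusted p = 0.81). These 5 relatives did not pass the test. NOTCH4, HEY2 and DTX1 stayed under 0.5 FPKM in all 4 libraries.

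POFUT1, which adds the O-fucose that ligand binding needs, was at 15.81 and 16.37 FPKM with siCTRL and at 10.36 and 9.79 with sip53 (-0.67, standard error 0.171, limma, adjusted p = 0.189). MAML1, the Mastermind coactivator, was at 14.93 and 12.75 against 8.93 and 8.80 FPKM (-0.63, standard error 0.183, limma, adjusted p = 0.22). TLE2, a Groucho corepressor, was the one that was higher, at 23.73 and 16.50 against 27.73 and 42.28 FPKM (0.79, standard error 0.296, limma, adjusted p = 0.306). In all 3 genes the groups did not overlap. The call of POFUT1 ended without siCTRL library 1 (-0.70) or 2 (-0.65), that of MAML1 without siCTRL library 1 (-0.52), sip53 library 1 (-0.64) or sip53 library 2 (-0.62), and that of TLE2 without siCTRL library 2 (0.53) or sip53 library 2 (0.48), and also without the filter on low values or the variance trend. FURIN, PSENEN and FBXW7 were also lower at the unadjusted p, by less than 1.5-fold (1.46, 1.41 and 1.44). The epithelial markers summed to 3854 and 4151 FPKM with siCTRL and to 3706 and 4292 FPKM with sip53, where KRT8, KRT18 and KRT19 did not pass the test and EPCAM was 1.51-fold higher (limma, adjusted p = 0.247). CD68, COL1A1 and ACTA2, the markers of other cell types with a row, summed to 39.6 and 27.6 FPKM with siCTRL and to 19.3 and 35.7 FPKM with sip53. On the log2 scale ACTA2 was lower (-3.72, limma, adjusted p = 0.0105). CD68 was higher by 2.09 but did not pass the adjusted p (standard error 0.709, limma, adjusted p = 0.271). The part of these markers in the results was not tested.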

How the data were processed

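RNA captured with oligo(dT) was sequenced from 10 libraries. For the ZMAT3 experiment the authors used Cutadapt 1.18 for trimming, STAR 2.7.0f for alignment (hg38, GENCODE 30) and RSEM 1.3.1 for gene quantification. They deposited log2 CPM values, in which the 6 libraries share 1 distribution. The siRNA table deposited by the authors was read here as FPKM, a unit inferred from the values (sums of 708634 to 829230 a library) and not stated in it. The submitters' processing notes name CASAVA 1.8.2, TopHat2 2.0.8 and FastQC 0.11.2 and the builds hg19 and hg38 for all samples alike, with no role, so which of them made this table is not given in the sources used here. The authors' fold changes and p-values in both tables were not used. How strand was treated in counting is not stated.

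Samples were grouped by their labels. Two-sided limma fits (version 3.58.1, R 4.3.3, moderated along the trend of variance on level) were made separately for the tables, with Benjamini-Hochberg adjustment across the whole table. Inputs were the log2 CPM as deposited and, where the mean reached 0.5 FPKM, log2(FPKM + 0.1), a scale that understates changes of low genes. An exact permutation test could not go below p = 0.1 with 3 against 3 libraries or 0.333 with 2 against 2, so none was used. Named are all members, their HES, HEY, Delta, NOTCH and deltex relatives, and other listed genes that were called (with sip53, those of at least 1.5-fold); FURIN, PSENEN, FBXW7, ADAM10, RBPJ and other genes under these limits were named after their values were seen. The members and lists were chosen with earlier results of these data known. Simulated data with 200 changed genes were used to test the scripts. Alternatives were a pseudocount of 1, other filters, a flat prior variance, blocking on replicate number, median centring, changed thresholds and leaving out single libraries. Replicate numbers did not pair the samples. Positions are from GENCODE release 44 and sequences from RefSeq GRCh38.p14, read with Python 3.11.15 and pandas 2.3.3. Genes near-identical to another copy are uncertain, since the counting could split their reads. Some genes of the lists are not reported here.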

Additional observations from a re-analysis of the deposited data

How the results depend on the processing

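The fall of HES1 in ZMAT3-KO kept its direction and its call under all 11 alternatives tried (-1.46 to -1.28), as did the direction of NRARP, NOTCH1, NOTCH2, JAG1 and JAG2. Without the fold threshold the ZMAT3 counts were 2 members higher and 4 lower, and 14 other pathway genes higher and 18 lower. Of all genes 58.8% then passed the adjusted p. With a pseudocount of 1 the other pathway genes numbered 1 higher and 2 lower, and with a mean of at least 0 log2 CPM 3 lower. The shares of all genes called under these 2 settings were 6.03% and 7.84%, against 8.96% in the main fit. Leaving out 1 library gave 1 to 2 of these genes higher, and the 2 uncalled members HES4 (-0.11 to 0.043) and NOTCH3 (-0.018 to 0.10) changed sign. With sip53, leaving out 1 library changed the sign of NOTCH2 (-0.19 to 0.16), NOTCH3 (-0.75 to 0.015) and JAG2 (-0.52 to 0.25). NRARP (-0.076 to 0.31) and DTX2 (-0.11 to 0.57) changed sign as well, and none of these genes was called. These sip53 fits assume that the lone library of a group varies like the other group. Median centring called 1 member higher (HES4) and turned NOTCH2 to 0.060; no filter called 1 member higher (HEY1) and 0 other pathway genes higher, as did no variance trend for the latter (0). By the adjusted p 0 other pathway genes were higher and 1 lower. The cause of these changes was not tested.

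With the replicate number as a block the ZMAT3 counts were as before (0 and 1 members, 2 and 5 other pathway genes, HES1 at -1.43). With sip53 0 other pathway genes were then higher and 3 lower, with 0 members either way. The block called 9.04% of all genes in the ZMAT3 experiment and 7.59% with sip53, against 8.96% and 15.1% in the main fits. Same-numbered ZMAT3 libraries correlated at -0.102 to 0.0598 in their deviations from the group means and the sip53 and siCTRL ones at -0.616, so the numbers were not taken as pairs. A crossed pairing of the siRNA libraries, chosen after seeing the data, gave 1 member higher and 2 lower and 6 other pathway genes higher and 13 lower, with 38.8% of all genes past the unadjusted p.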

Other observations

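Genes of the secretory lineage, which HES1 holds down in the intestinal epithelium, were mostly low or without a row. Of 10 listed, 2 had a row in the ZMAT3 table and 5 in the siRNA table. ATOH1, the master factor of that lineage, was at 0.03 and 0.17 FPKM with siCTRL and listed at 0 in both sip53 libraries, and MUC2, the goblet cell mucin, was at 0.02 FPKM or less in all 4. GFI1, which acts after ATOH1 in secretory precursors, was the one called: it was at 2.52, 2.33 and 2.43 log2 CPM in WT and at 1.52, 1.38 and 1.59 in KO, 1.90-fold lower with no overlap (-0.93, standard error 0.094, limma, adjusted p = 3.37e-06). With sip53 it was at 3.15 and 2.35 FPKM against 2.63 and 2.48 (limma, adjusted p = 0.907). LYZ was at 2.86 and 1.83 FPKM with siCTRL and at 1.74 and 0.74 with sip53 (limma, adjusted p = 0.419), and FCGBP was -0.08 in the knockout (limma, adjusted p = 0.583). HES1 and GFI1 thus were both lower in the same KO libraries. The part of the keratin difference in this was not tested.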
